A study of Mus musculus with 12 samples.

Results

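The 6 sedentary hearts are the resting group of a series of 12 mouse heart arrays, and they were taken by their labels alone, with no use of any measured value. The 6 exercised arrays of the series serve here only for comparison. Exercised hearts came from male C57Bl/6 mice, aged 8 weeks, after 7 days of voluntary wheel running. Sedentary hearts came from male C57Bl/6 mice of the same age, labelled with the same 7 days and with no running. Each array carries biotin-labelled cRNA from the total RNA of 1 whole heart sample. Atria, ventricles, vessels, valves and any blood left in the chambers thus contribute together. Replicates carry numbers, with no label tying a number to its own mouse, and SDs and p-values describe the spread among these samples, which may be technical.

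The heart beats without pause, and its muscle cells are packed with sarcomeres, the contractile units of thick and thin filaments, and with mitochondria that burn mainly fatty acids. Muscle cells make up most of the tissue's volume, while endothelial cells, fibroblasts, mural cells and resident macrophages make up much of its cell number. Atrial and ventricular muscle use different copies of several sarcomere proteins, which makes the mix of chambers readable in RNA from a whole heart.

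Each array measured 45281 probes, of which 34885 carried exactly 1 gene symbol, and the probe of highest mean was kept for each of 19057 genes. A gene was called detected on an array when its detection p-value, a value deposited beside each signal, was under 0.01. Between 9768 genes in sedentary replicate 5 and 9981 in replicate 2 were detected per array. The number of detected genes averaged 9906 ± 276 on exercised arrays and 9876 ± 85.7 on sedentary arrays (SD, n = 6 each), a difference of 30.5 genes (exact two-sided permutation p = 0.829, adjusted p = 0.829 over 2 such tests). Precision is limited by having 6 arrays a group.

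Sedentary replicate 2 stood apart from the other 5 before any gene was considered. Its raw median signal was 137.6, against 48.6 to 52.4 on the other 5 sedentary arrays. Exercised replicates 2, 3 and 6 lay in the same high range, with raw medians of 130.5 to 138.6. These arrays and sedentary replicate 2 also had higher raw maxima, at 55333.5 to 60926.3, against 22519.3 to 26214.2 on the rest. Arrays of high background are here those with a raw 5th percentile above 75. The name marks this set of arrays, whose bright signals were raised too, and gives no cause. The first principal component of the sedentary arrays held 50.6% of the variance over 8841 detected genes, with a loading of 0.78 for replicate 2. The second held 22.4%, with a loading of 0.76 for replicate 1. The main results on spread between hearts are therefore given with and without replicate 2.

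Genes of mitochondrial respiration and of contraction were the most frequent among the brightest genes of the resting heart. Of the 50 genes of highest mean signal, 23 were in the list of respiratory chain and ATP synthase subunits (Atp5mpl, also of ATP synthase, stood at rank 49 outside it), 8 in that of the sarcomere, 4 in that of the cytosolic ribosome, 2 in that of fatty acid use and 2 in that of energy buffering. The 50 genes together held 14.01 ± 0.49% of the background-corrected signal summed over all genes (SD, n = 6). Probe brightness depends on the probe as well as on the transcript, so these are shares of signal and not of transcripts. The top was flat: the first gene's share was 1.52-fold that of the 50th. In all, 500 genes held 52.6 ± 1.18% of the signal and 2000 genes held 81.1%.

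Among sarcomere genes, Myl2, the regulatory light chain of ventricular myosin, held 0.306% of the signal at its lowest in replicate 4, 0.346% at the median and 0.372% at its highest in replicate 2. Myl3, the essential light chain of ventricular myosin, ranged from 0.279% in replicate 4 to 0.317% in replicate 6. Tnnc1, the calcium-binding troponin of heart and slow muscle, ranged from 0.281% in replicate 4 to 0.330% in replicate 1. By share, replicate 4 was the lowest heart for all 3, and a different heart was the highest each time. On the normalized log2 scale Myl3 was also lowest in replicate 4, but Myl2 and Tnnc1 were lowest in replicate 5. Actn2, which anchors thin filaments, Myh6, the main myosin heavy chain of the adult mouse heart, Actc1, cardiac actin, Csrp3 and Tcap, both of the Z-disc, completed the sarcomere genes of the top 50. All 24 measured sarcomere genes together held 3.20 ± 0.089% of the signal, and 3.19 ± 0.091% without replicate 2.

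Oxidative phosphorylation took the largest share of the families examined. Its 81 measured genes, nuclear and mitochondrial, held 11.3% of the signal at the lowest in replicate 2, 12.2% at the median and 12.9% at the highest in replicate 5. The mean was 12.2 ± 0.58%, and 12.4 ± 0.43% without replicate 2. ATP synthase subunits led this family, with Atp5b, the catalytic beta subunit, at 0.301 ± 0.019%, Atp5o at 0.295 ± 0.017%, Atp5j2 at 0.293 ± 0.027% and Atp5g3, a copy of the membrane ring subunit, at 0.281 ± 0.024%. Cytochrome c oxidase, which passes electrons to oxygen, followed with Cox5b, Cox4i1, Cox6a2 and Cox7a1, between 0.281% and 0.292% each; Cox6a2 and Cox7a1 are the isoforms of heart and skeletal muscle. Ndufa13 of complex I held 0.285 ± 0.024%. Of the 8 mitochondrially encoded genes on the array, ND4, a complex I subunit, was the brightest at 0.299 ± 0.026%, and CYTB, ND1, ATP6 and COX2 also stood in the top 50.

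Fuel supply and calcium cycling were represented by few but bright genes. Lpl, the lipase that frees fatty acids from circulating lipoproteins, held 0.300 ± 0.024%, and Fabp3, the fatty acid binding protein of heart muscle, 0.289 ± 0.017%. The 22 genes of fatty acid use held 2.01 ± 0.18% together, from 1.80% in replicate 3 to 2.23% in replicate 1. Ckmt2, mitochondrial creatine kinase, held 0.288 ± 0.011%, and Mb, myoglobin, which stores oxygen in muscle, 0.274 ± 0.021%. Atp2a2, the pump that returns calcium to the sarcoplasmic reticulum, held 0.292 ± 0.026%. Hspb6, a small heat shock protein abundant in muscle, held 0.249% in replicate 1, a median of 0.301% and 0.318% in replicate 2, and Fth1, the heavy chain of the iron store ferritin, held 0.307 ± 0.013%.

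Globin genes stood near the top of the list. Hbb-bs, an adult beta globin, was the gene of highest signal, with 0.335% in replicate 6 at the lowest, 0.352% at the median and 0.388% in replicate 5 at the highest. Hba-a1, alpha globin, followed at rank 5 and Hbb-bt, the other adult beta globin of this strain, at rank 10. The 7 measured globin genes, grouped after their values were seen, held 0.959 ± 0.080% of the signal, and 0.977 ± 0.076% without replicate 2. Globin copies are nearly identical, so their probes may share transcripts and their values are uncertain gene by gene.

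Translation was the family whose share differed most between hearts. The 50 measured genes of the cytosolic ribosome held 4.95 ± 0.73% of the signal, with 3.92% in replicate 2, 4.11% in replicate 1, and 5.27% to 5.65% in the other 4. Replicates 1 and 2 were thus both low, and replicate 1 is an array of low background. Without replicate 2 the mean was 5.15 ± 0.60%. Rps2 held 0.311 ± 0.015%, Rplp1 0.283 ± 0.043% and Rpl41 0.283 ± 0.020%. In the exercised group the family held 3.41% on average on the 3 arrays of high background and 4.93% on the 3 of low background.

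**Figure D1:**
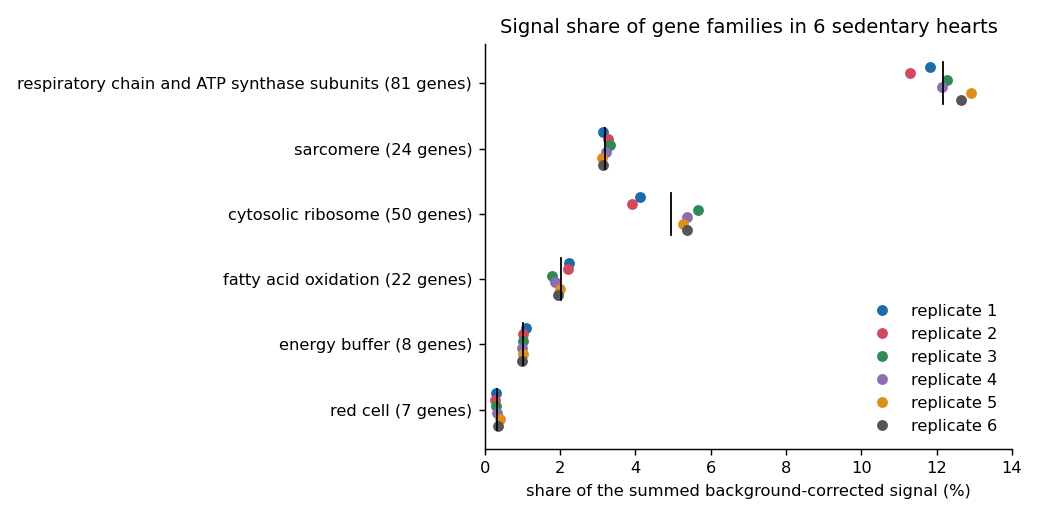
Share of the summed background-corrected signal, in percent, held by 6 gene families in each sedentary heart, with 1 coloured point per array and a black bar at the mean. Respiratory chain and ATP synthase genes lie between 11.3% and 12.9%, and in the cytosolic ribosome row replicates 1 and 2 lie below the other 4.

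Membership of the top was shared by nearly every heart. When each array ranked its own genes, 38 genes were among the first 50 of all 6 sedentary arrays, and 63 were among the first 50 of at least 1. Of the 50 genes ranked over the exercised arrays, 47 were the same as in sedentary hearts. Each array's own first 50 genes held 13.7 ± 0.92% of the signal on exercised arrays and 14.2 ± 0.40% on sedentary arrays (SD, n = 6 each). The difference of -0.49 percentage points did not pass an exact two-sided permutation test (p = 0.271, adjusted p = 0.541 over 2 tests).

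Detection split the 19057 genes into 3 classes. On all 6 sedentary arrays 8841 genes, 46.4%, were detected; on 1 to 5 arrays 2365 genes, 12.4%; and on none 7851 genes, 41.2%. At the edge of the first class, Abhd2 had a highest detection p of 0.00991 over the 6 arrays and was counted in, while Cuedc1 had 0.01087 and was counted out. The classes carried over to exercised hearts: of the 8841 genes, 8534, or 96.5%, were detected on all 6 exercised arrays and 0 were missing from every one. Of the 7851 undetected genes, 7087, or 90.3%, were detected on no exercised array and 0 on all 6. Probes without a single gene symbol, 10396 in number, were detected on all 6 sedentary arrays in 18.2% of cases, against 37.0% of the probes with 1 symbol.

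Replicate 2 also shaped the middle class. It was the only array to detect 311 genes, against 93 to 126 for each of the others, and the only one to miss 144, against 39 to 89. Without it, 8985 genes were detected on all of the remaining 5 arrays and 1910 on 1 to 4.

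Genes that define the working heart were nearly all detected. Of 223 measured genes of contraction, calcium handling, respiration, fuel use, translation and endothelium, 206, or 92.4%, were detected on all 6 arrays, beside 46.4% of all genes. All 10 thick filament genes and all 17 genes of the TCA cycle were in this class, as were 34 of 35 genes of complex I and 21 of 22 of fatty acid use. Of 17 cardiac transcription factors 11 were detected on all 6, among them Gata4, Gata6, Nkx2-5 and Mef2c, which act together in heart muscle. Isl1, Gata5 and Hand1, known from the embryonic heart, were detected on none.

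Missing from the 223 were some genes whose products the heart is known to need. Sdha, the catalytic subunit of complex II, Ndufs1 of complex I, Slc25a4, the main exchanger of ADP and ATP in heart mitochondria, Trdn, triadin of the calcium release unit, and Rpl6, Rpl14, Rps20 and Rps23 of the ribosome were not well above background on any of the 6 arrays. Each of these 8 had 1 named probe, and none was detected on any exercised array. Kdr, a receptor for endothelial growth factor, and Cpt1a, the liver form of a carnitine acyltransferase, had 2 probes each and were also detected on no sedentary array, and Kdr was detected on 2 exercised arrays. A gene not detected by its probe may still be transcribed.

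The cell types around the muscle were well represented. Endothelial markers were detected on all 6 arrays for 13 of 15 genes, smooth muscle and pericyte markers for 11 of 13, fibroblast and matrix genes for 17 of 18 and macrophage markers for 14 of 15. The macrophage genes included Lyz2, Mrc1, Lyve1, Cd163 and all 3 chains of complement C1q, a set known from resident macrophages. Lymphocyte markers were detected on all 6 for 2 of 11 genes, Cd8b1 and Cd79b, while Cd3e, Cd4, Cd8a and Ms4a1 were detected on none. Of 10 neutrophil markers, Lcn2 and S100a8 were detected on all 6. The defining adipocyte genes were split, with Adipoq detected on all 6 arrays and Plin1, Lep and the brown fat uncoupler Ucp1 on none.

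Lists for other organs served as a check of the labelled tissue. Of 84 measured genes that define lung epithelium, pancreas, testis, intestine, kidney, skin, lens and photoreceptors, neurons, thymus or stem cells, 7, or 8.33%, were detected on all 6 sedentary arrays and 63, or 75%, on none. The surfactant genes Sftpa1, Sftpb, Sftpc and Sftpd were detected on none. Of 13 skeletal muscle genes 7 were detected on all 6, among them Myl1, Mylpf and Pvalb, and 4 on none, among them the myosins Myh1 and Myh4. In the separate liver list, 7 of 12 hepatocyte genes were detected on all 6 arrays, although Alb, albumin, was detected on none. Eif2s3y, Kdm5d and Uty, genes of the Y chromosome, were detected on all 6 arrays, and Xist, made from the inactive X of females, on none; the labels give male mice.

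**Figure D2:**
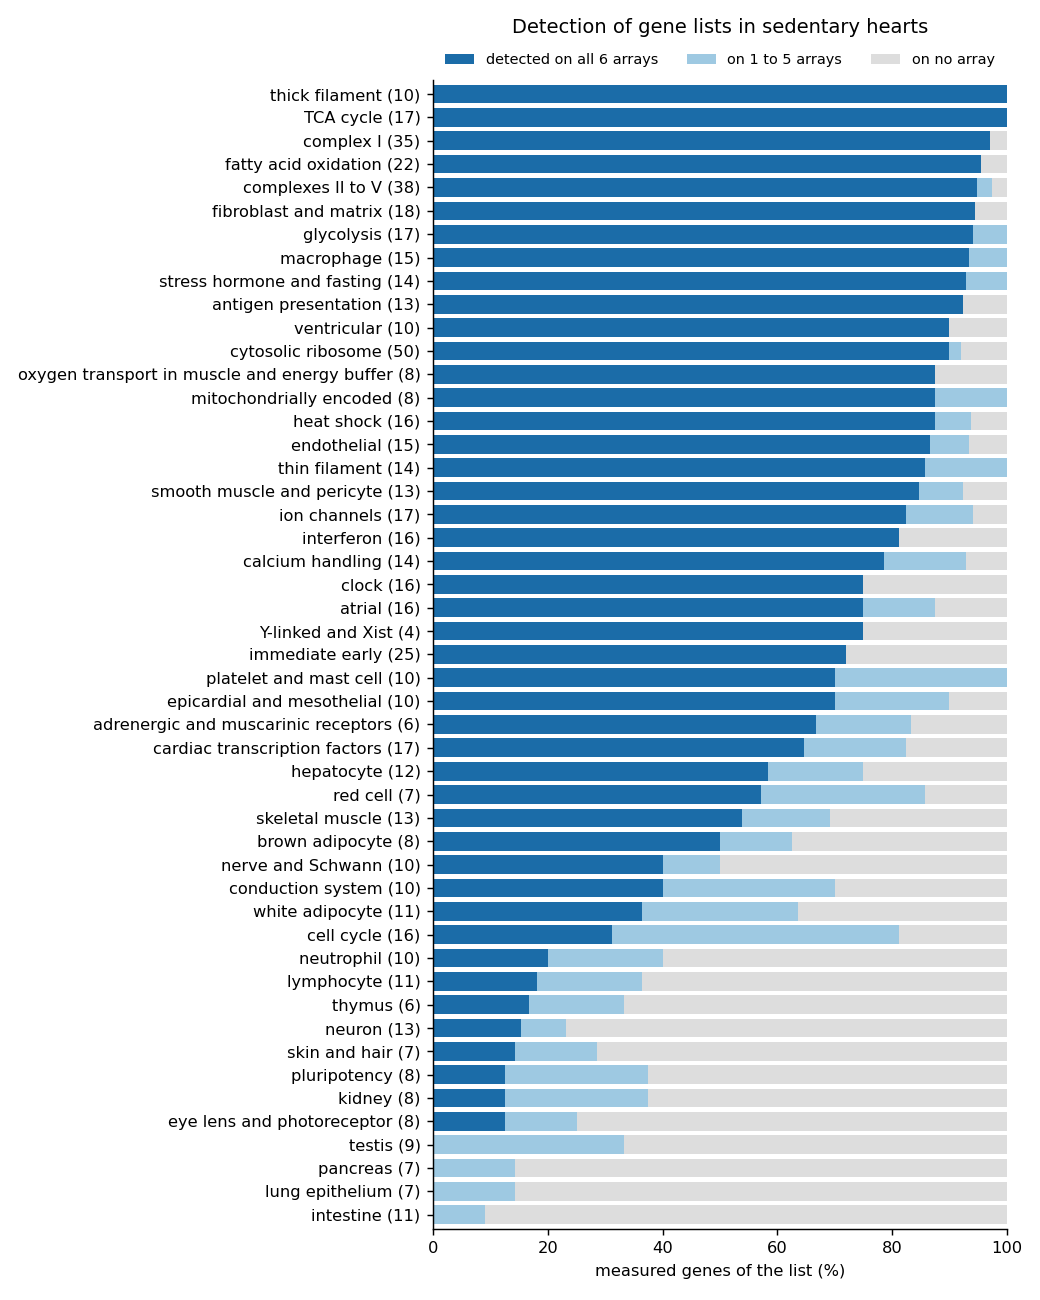
Detection of 49 gene lists in the 6 sedentary hearts, with the number of measured genes in brackets. Each bar divides a list into the percent of its genes detected at p under 0.01 on all 6 arrays, on 1 to 5 and on none; lists of heart muscle, vessels, fibroblasts and macrophages stand at the top and lists of other organs at the bottom.

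The genes detected on 1 to 5 arrays were mostly dim. The 10 of highest mean among them were Prc1, Cst9, Hbb-b2, Fgf12, Arid3a, Zbtb16, Slc15a2, Azgp1, Cpxm1 and 2510002D24Rik, each detected on 5 of 6. Fgf12, an intracellular partner of sodium channels that stood in the atrial list, was at 4.28 in replicate 1, a median of 5.66 and 7.46 in replicate 3 (log2 intensity). Hbb-b2, a beta globin, was lowest in replicate 2 at 4.92 and highest in replicate 5 at 6.98. Prc1, which bundles spindle microtubules in dividing cells, ran from 4.93 in replicate 1 to 7.23 in replicate 4. Of 16 cell cycle genes 5 were detected on all 6 arrays, 8 on some and 3 on none, the largest middle class of any list.

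Most genes differed little between the 6 hearts. Over the 8841 genes detected on all 6 sedentary arrays, the 6 exercised hearts, normalized alone, had a median SD of log2 intensity of 0.25, with 629 genes above 0.5. Over the 6 sedentary hearts the median SD of log2 intensity was 0.21, and 243 genes, or 2.75%, exceeded 0.5. Without replicate 2 the median SD was 0.17 and 115 genes exceeded 0.5, while 16 genes exceeded 1 either way. The SD was smaller at higher signal, with a median of 0.25 over the 2211 genes of lowest mean intensity and 0.17 over the 2210 of highest. Rank orders of the SD in exercised and sedentary hearts had a Spearman correlation of 0.52 across the 8841 genes, and 0.28 without sedentary replicate 2. Genes are not independent replicates, and both groups hold arrays of high background.

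**Figure D3:**
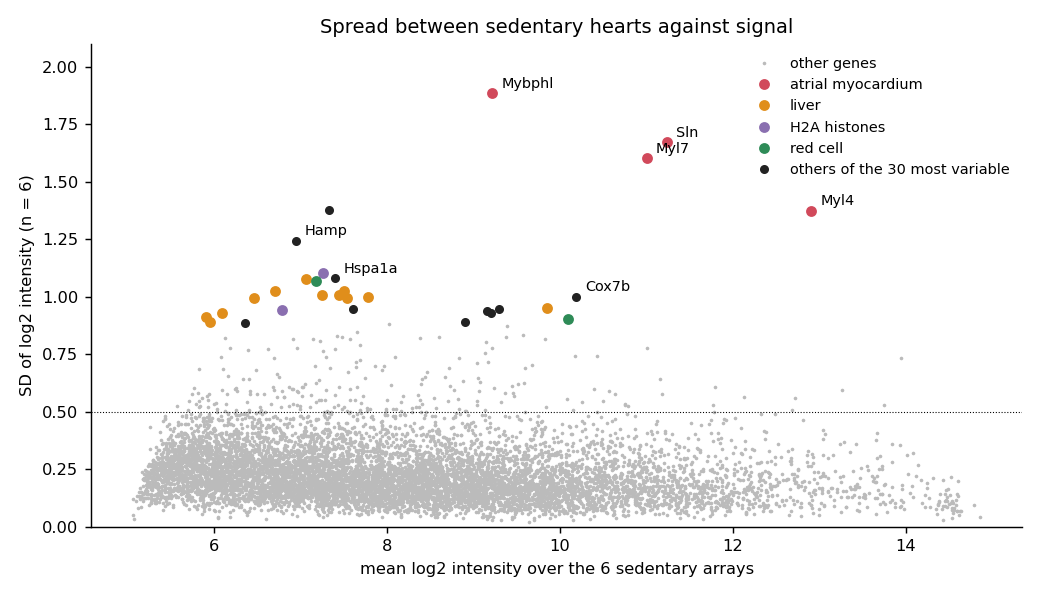
SD of log2 intensity over the 6 sedentary arrays against mean log2 intensity, with 1 point for each of 8841 genes detected on all 6 and the 30 most variable coloured by group. Nearly all genes lie under the dotted line at an SD of 0.5, and Mybphl, Sln, Myl7 and Myl4 stand above the rest at moderate to high signal.

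Single genes of atrial muscle had the largest SDs. Mybphl, a relative of cardiac myosin binding protein C, had the largest SD at 1.89. It was at 6.67 in replicate 1, a median of 9.16 and 11.49 in replicate 3 (log2 intensity), a 28.2-fold range. Its list, drawn up as ventricular, was the wrong place for it by its known expression, since in mouse its protein is known from atria and conduction system. Sln, sarcolipin, which inhibits the calcium pump in atria, was at 8.79 in replicate 1, a median of 11.09 and 13.17 in replicate 3. Myl7, the atrial regulatory light chain, was at 8.86 in replicate 1, a median of 10.85 and 12.99 in replicate 3. Myl4, the atrial essential light chain, was at 11.14 in replicate 1, a median of 12.74 and 14.64 in replicate 3. In each of the 4 genes replicates 3 and 4 were high, replicate 1 was low and replicates 5 and 6 lay below replicate 2.

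The wider atrial list had its lowest and highest mean in the same arrays. It holds Sln, Myl7 and Myl4, so its mean and counts are not independent of them. Its 12 genes detected on all 6 arrays averaged 8.29 in replicate 1, 8.97 at the median and 9.89 in replicate 3, a range of 1.60, and 1.61 without replicate 2. The median range over 37 lists was 0.41. Replicate 3 was the highest array for 8 of the 12 genes, against 17.8% of all detected genes, and replicate 1 the lowest for 6, against 18.1%. These extremes were not particular to atrial genes. The epicardial and mesothelial, endothelial, and fibroblast and matrix lists also had their lowest mean in replicate 1 and highest in replicate 3. The ranges of these lists were 0.89, 0.42 and 0.66, and Upk3b is in both the atrial and the epicardial list. Nppa, the precursor of atrial natriuretic peptide, was at 12.81 in replicate 1, a median of 14.08 and 14.59 in replicate 2. Dkk3, lowest in replicate 1 and highest in replicate 3, had an SD of 0.82, Stard10 0.62, Upk3b 0.52 and Gja5, the connexin of atria and conduction fibres, 0.51. Without replicate 2 these SDs were 0.92 for Dkk3, 0.70 for Stard10, 0.52 for Upk3b and 0.55 for Gja5. Not every member followed. Kcnj3 and Adm were higher in replicate 1, at 6.28 and 5.99, than in replicate 3, at 5.91 and 5.70. Pam was highest in replicate 5, at 7.66, and Nr2f2 had an SD of only 0.14. Bmp10, made by the right atrium, and Cpne5 were detected on none. Of the other ventricular list genes detected on all 6, Myl2, Myl3 and Myh6 had SDs of 0.10, 0.05 and 0.11, but Myl2 reached the top value of the normalized scale, 14.90, in replicates 2 and 6, which limits its spread. Irx4, a ventricular transcription factor, was at 8.05 in replicate 1 and 6.91 in replicate 3, and Pln, phospholamban, which inhibits the calcium pump, at 13.82 in replicate 1 and 13.10 in replicate 3. Both were thus highest in the heart where Mybphl, Sln, Myl7 and Myl4 were lowest. The SDs of Lbh, Hey2 and Kcnip2 were 0.20, 0.45 and 0.70, and that of Kcnip2 was 0.26 without replicate 2. In RNA from whole tissue, fewer cells of a type and less RNA per cell cannot be told apart.

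Outside the list, the genes whose profile over the 6 arrays was most like the atrial mean were Mybphl (Pearson r = 0.99), Podn, Crtc1, Myo9b and Sdc2, each described over only 6 arrays. Of these, Podn ran from 5.29 in replicate 1 to 6.42 in replicate 3, and the other 3 besides Mybphl had SDs of 0.08 to 0.17. Hamp, the iron hormone hepcidin, which the liver and also the heart make, was not in the list but had its extremes in the same arrays. It was at 4.99 in replicate 1, a median of 7.05 and 8.51 in replicate 3. Hamp had the 6th largest SD, 1.25, and 0.63 with the deposited lumi values.

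Promoters of the atrial genes are shown because these genes are among those of largest SD or belong to the same list. The sequences are from RefSeq (GRCm38.p6) and cover 250 bases before to 50 after the annotated start. They were searched on both strands for TATAAA, the TATA box, AGATAA, bound by GATA factors, and AGGTGT, bound by T-box factors, and matches are in capitals.
Myl7 (chr11:5898733-5899032, minus strand): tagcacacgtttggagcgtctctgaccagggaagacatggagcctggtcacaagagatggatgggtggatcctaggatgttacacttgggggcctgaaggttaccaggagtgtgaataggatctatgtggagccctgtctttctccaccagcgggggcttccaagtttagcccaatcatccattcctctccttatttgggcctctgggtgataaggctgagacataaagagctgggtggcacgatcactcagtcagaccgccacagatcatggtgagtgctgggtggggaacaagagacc
Mybphl (chr3:108364661-108364960, plus strand): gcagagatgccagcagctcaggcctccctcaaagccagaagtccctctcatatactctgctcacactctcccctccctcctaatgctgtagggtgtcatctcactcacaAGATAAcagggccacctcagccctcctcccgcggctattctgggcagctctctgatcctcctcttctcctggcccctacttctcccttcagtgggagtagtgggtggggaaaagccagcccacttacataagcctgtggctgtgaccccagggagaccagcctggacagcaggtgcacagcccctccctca
Nppa (chr4:148000472-148000771, plus strand): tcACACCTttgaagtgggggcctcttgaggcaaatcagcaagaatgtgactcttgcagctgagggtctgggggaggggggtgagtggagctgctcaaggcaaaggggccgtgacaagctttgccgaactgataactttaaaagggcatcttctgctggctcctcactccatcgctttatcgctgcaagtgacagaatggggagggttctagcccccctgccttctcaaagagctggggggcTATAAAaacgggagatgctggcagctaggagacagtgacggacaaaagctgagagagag
Nppa holds 1 TATAAA and 1 AGGTGT, which is read on the other strand as ACACCT. Mybphl holds 1 AGATAA, and Myl7 none of the 3. Over 10 promoters of the 12 atrial list genes that had an entry, 1 held TATAAA, 2 held AGGTGT and 0 held AGATAA. Of all 27025 promoters in the table, 14.2% held TATAAA, 13.9% AGGTGT and 11.4% AGATAA. A match is only a match of letters.

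Many liver transcripts were highest in the same heart. Of the 30 genes of largest SD, 12 encode proteins that hepatocytes secrete into plasma or urine, and all 12 were highest in replicate 5. Over all detected genes, replicate 5 was the highest array for 9.68%. The 12 were grouped from the 30 after their values were seen, so their shared peak and wide range depend in part on that choice. Hamp, also among the 30 and made by liver and heart, was not counted with them and was highest in replicate 3. Of the 7 detected genes of the hepatocyte list, 5 were highest in replicate 5, while Ahsg, fetuin, was highest in replicate 3 at 8.45 and Trf, transferrin, in replicate 2 at 9.32. Apoa1, the main apolipoprotein of high density lipoprotein, was at 6.27 in replicate 1, a median of 6.51 and 8.98 in replicate 5. Ttr, the thyroid hormone carrier transthyretin, was at 6.52 in replicate 6, a median of 7.25 and 9.33 in replicate 5. Mup2, a major urinary protein, was at 8.54 in replicate 6, a median of 9.89 and 11.07 in replicate 5. The 12 genes averaged 6.36 in replicate 6, 6.84 at the median and 8.81 in replicate 5, and replicate 4, at 7.44, was the next highest. Replicate 5 is an array of low background, and the range of their means was 2.45 with replicate 2 and 2.39 without it.

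The same genes varied more widely among exercised hearts. On the scale of all 12 arrays, the 7 detected genes of the hepatocyte list averaged 7.55, 9.92 and 13.64 at the lowest, median and highest exercised array, and 7.04, 7.57 and 9.01 in sedentary hearts. The 2 groups overlapped. Beside 18 of 9843 genes called between groups by limma over all, or 0.183%, 0 of the 7 genes were called. Their SDs in exercised hearts were large: 3.12 for Apoa1, 2.91 for Apoa2 and 2.93 for Ttr, against 0.25 for the median gene. Serpina1b, Serpina1c, Serpina1d and Serpina1e encode the protease inhibitor antitrypsin in near-identical copies, as do the urinary proteins, so the 12 genes are fewer than 12 independent measurements. Kng1, Mup3 and Fgg had the profiles most like the hepatocyte mean outside that list (Pearson r = 0.98, 0.97 and 0.97 over 6 arrays).

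Of the 9 liver genes with a RefSeq promoter entry, 5 held GTTAAT, a core of the site bound by the liver factor HNF1, on either strand, against 7.20% of all 27025 promoters. They were the 4 Serpina1 copies, which share ancestry, and Fga, the alpha chain of fibrinogen. The motif was chosen after the genes were seen, and this is a property of the sequence and not of the arrays. A Serpina1 copy and Fga are shown with GTTAAT in capitals, which Fga holds on the other strand as ATTAAC.
Serpina1b (chr12:103738140-103738439, minus strand): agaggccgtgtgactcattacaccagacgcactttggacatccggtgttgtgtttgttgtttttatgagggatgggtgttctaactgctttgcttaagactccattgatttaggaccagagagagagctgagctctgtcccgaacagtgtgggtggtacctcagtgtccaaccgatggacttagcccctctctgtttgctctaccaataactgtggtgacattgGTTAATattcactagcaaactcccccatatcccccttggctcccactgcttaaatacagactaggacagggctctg
Fga (chr3:83025903-83026202, plus strand): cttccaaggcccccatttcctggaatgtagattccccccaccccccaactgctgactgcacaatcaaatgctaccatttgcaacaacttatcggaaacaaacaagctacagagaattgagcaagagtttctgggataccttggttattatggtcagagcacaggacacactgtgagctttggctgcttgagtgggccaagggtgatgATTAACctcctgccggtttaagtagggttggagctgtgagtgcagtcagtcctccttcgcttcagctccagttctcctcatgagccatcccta

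Slc4a1 and Alas2 of the red cell list formed another axis. Slc4a1, the anion exchanger of the red cell membrane, was at 5.76 in replicate 1, a median of 7.31 and 8.52 in replicate 5. Alas2, which starts haem synthesis in red cell precursors, was at 8.88 in replicate 2, a median of 10.33 and 11.25 in replicate 5. Both were low in replicates 1 and 2 and high in replicate 5, the heart with the most liver signal, while the 2 axes differed in replicate 6, which was low for liver genes and above the median for Alas2 and Slc4a1. The SDs of the bright globins were 0.13 for Hba-a1, 0.20 for Hbb-bt and 0.04 for Hbb-bs, but Hbb-bs stood at the same top value of 14.90 in replicates 1, 4 and 5, so its spread cannot be read on this scale. The 4 detected red cell genes ranged over 1.45 in their mean, and 1.27 without replicate 2. Of these, Hba-a1 was highest in replicate 6, at 14.77, and Hebp1 in replicate 4, at 7.60. Hebp1 was lowest in replicate 2, at 6.61, and its SD was 0.35, and 0.09 without replicate 2. In exercised hearts the SDs were 0.39 for Alas2 and 0.33 for Slc4a1. The profiles most like the red cell mean over the 6 arrays were those of Tmem205, Tmem147, Eef1akmt1, Rilpl2 and Ube2l6.

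The Alas2 promoter is shown because it holds the letters TATAAA and AGATAA, each in capitals and each read on the other strand. The TATAAA match lies near the upstream end of the sequence, far from the annotated start. Over all 27025 promoters 14.2% held TATAAA and 11.4% AGATAA, and a match is only a match of letters.
Alas2 (chrX:150547167-150547466, plus strand): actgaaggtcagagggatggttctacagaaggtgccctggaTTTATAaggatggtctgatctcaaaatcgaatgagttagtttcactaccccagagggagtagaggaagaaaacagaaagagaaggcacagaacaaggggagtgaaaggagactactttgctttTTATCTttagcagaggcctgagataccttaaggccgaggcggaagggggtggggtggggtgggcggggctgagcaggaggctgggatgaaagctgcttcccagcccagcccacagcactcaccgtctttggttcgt

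Histone H2A genes varied together. Of 16 measured H2A genes, grouped after their values were seen, 10 were detected on all 6 arrays, and their mean was 8.24 in replicate 1, 9.26 at the median and 9.82 in replicate 4, and the range of the means was 1.55 without replicate 2. Replicate 1 was the lowest array for 9 of the 10 and replicate 4 the highest for 8. H2ac22 was at 5.68 in replicate 1, a median of 7.51 and 8.61 in replicate 4, and H2ac12 at 5.19 in replicate 1, a median of 6.91 and 7.89 in replicate 4. These genes make the core histone of newly copied chromatin and lack the usual poly(A) tail, and their copies are nearly identical, so single genes are uncertain. Cell cycle genes, of which 5 were detected on all 6, also had their lowest mean in replicate 1 and their highest in replicate 4, at 5.97 and 6.62.

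Matrix genes were low in replicate 1. Eln, elastin of large vessels and valves, was at 6.20 in replicate 1, a median of 7.87 and 8.60 in replicate 4. Col3a1, a fibrillar collagen and the gene next below the first 30 with an SD of 0.88, was at 6.82 in replicate 1 and 8.84 in replicate 4. Over the 17 detected genes of fibroblasts and matrix, the mean was 9.06 in replicate 1, 9.54 at the median and 9.73 in replicate 3, a range of 0.66 with or without replicate 2, and replicate 1 was the lowest array for 10 of them. Over all detected genes it was the lowest array for 18.1% and the highest for 20.5%. Replicate 1 was the highest array for 8 of 17 genes of the TCA cycle and 9 of 21 of fatty acid use. Complex I genes, in contrast, averaged 12.86 there, above only replicate 2, which had 12.78, and 13.03 to 13.08 in the other 4.

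Hspa1a, the inducible chaperone HSP70, was high in a different heart. It was at 6.38 in replicate 5, a median of 7.20 and 9.20 in replicate 6, with an SD of 1.08, and 1.08 without replicate 2. Replicate 6 was also the highest array for 7 of the 14 detected heat shock genes, against 13.6% of all detected genes. Dnajb1, a partner of HSP70, ran from 9.90 in replicate 3 to 11.20 in replicate 6, and Hsp90aa1 from 8.05 in replicate 2 to 9.45 in replicate 6. Pdk4, which spares glucose during fasting, was likewise highest in replicate 6, at 12.62, and lowest in replicate 5, at 10.98. In exercised hearts the SD of Hspa1a was 2.40. Its promoter is shown because heat shock genes are known for the inverted repeat GAANNTTC, bound by heat shock factors and present in 7.95% of all promoters in the table, here in capitals.
Hspa1a (chr17:34972107-34972406, minus strand): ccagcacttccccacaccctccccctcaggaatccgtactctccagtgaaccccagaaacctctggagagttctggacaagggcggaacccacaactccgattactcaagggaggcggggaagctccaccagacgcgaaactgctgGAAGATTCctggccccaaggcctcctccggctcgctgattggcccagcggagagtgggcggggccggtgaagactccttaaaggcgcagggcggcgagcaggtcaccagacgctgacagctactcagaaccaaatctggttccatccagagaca

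**Figure D4:**
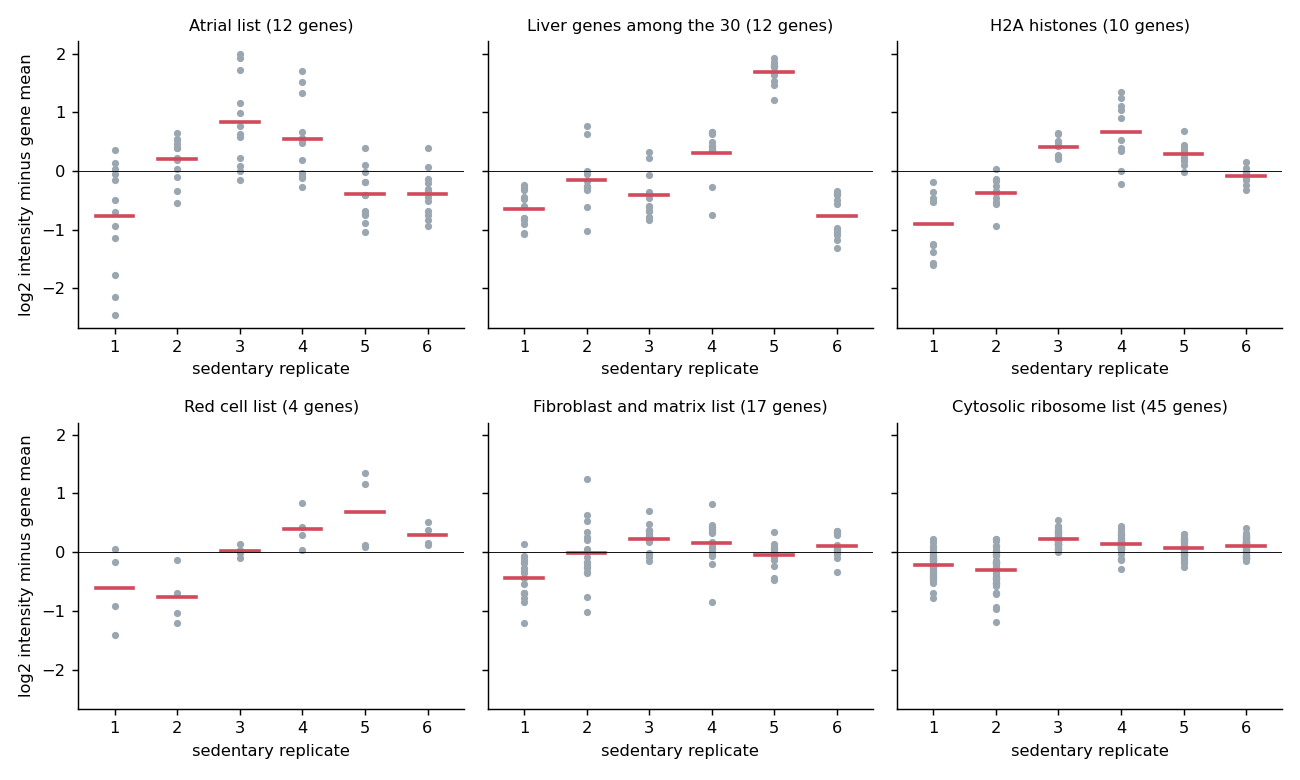
Log2 intensity minus the gene's mean over the 6 sedentary arrays, for 6 groups of genes detected on all 6, with 1 grey point per gene and a red bar at the group mean; replicate numbers have no order. On average, atrial genes are high in replicates 3 and 4, liver genes in replicate 5 and H2A genes in replicate 4. The means of atrial, H2A and matrix genes are low in replicate 1.

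A further set of variable genes was driven by replicate 2. Cox7b, a subunit of cytochrome c oxidase, was at 8.39 in replicate 2 and between 9.63 and 10.92 in the other 5. Ndufb4 of complex I was at 7.42 in replicate 2, against 9.08 to 10.03, Atp5md, a small ATP synthase subunit, at 7.44, against 8.89 to 10.17, and Wdr89 at 7.54, against 8.94 to 10.12. In the opposite direction, Tsc22d1, a transcription regulator, was at 10.70 in replicate 2, against 8.38 to 8.69. Without replicate 2 the SD of Tsc22d1 was 0.12, against 0.89 with it, and that of Ndufb4 was 0.36, against 0.93. Cox7b still had an SD of 0.54 without replicate 2, rank 88.

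The shift of replicate 2 recurred in the other group. Over 8841 genes, 210 differed by more than 1 on the log2 scale between replicate 2 and the mean of the other 5 sedentary arrays, 97 higher and 113 lower. Of these, 207 had the same sign when the 3 exercised arrays of high background were set against the 3 of low background. The correlation of both shifts across genes was 0.78, over arrays that share their background range. Msn, a membrane to actin linker, was at 9.15 in replicate 2, against 7.03 to 7.23, and at 8.45 to 9.62 on the high against 7.55 to 7.63 on the low exercised arrays. Cox7b was at 8.66 to 9.68 on the high and 10.73 to 11.23 on the low exercised arrays. An exception was Adipoq, the adipocyte hormone adiponectin, at 5.43 in replicate 2 against 6.56 to 7.66, where the exercised arrays differed by only -0.15. Slides and scans are not recorded in the sources used here, so the background range and the hearts on those arrays cannot be told apart.

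**Figure D5:**
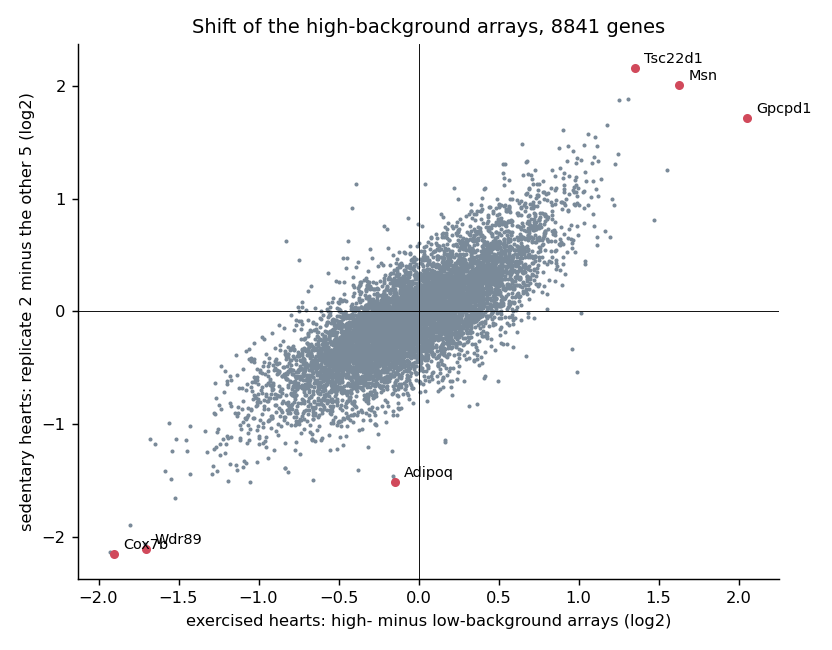
Log2 difference between sedentary replicate 2 and the mean of the other 5 sedentary arrays, against the log2 difference between the 3 exercised arrays of high and the 3 of low background, for 8841 genes. The cloud runs along the diagonal (r = 0.78 across genes), with Tsc22d1, Msn and Gpcpd1 at the upper right, Cox7b and Wdr89 at the lower left and Adipoq off the cloud.

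The order of variable genes held up in part without replicate 2. Of the 30 genes of largest SD, 23 were also among the first 30 over the 5 low-background arrays, led by Mybphl, Sln, Myl7, Myl4 and 2900060B14Rik, a gene without an annotated role here. That gene was at 5.43 in replicate 1, a median of 7.74 and 8.84 in replicate 6. Genes that entered included Dkk3, further H2A genes, Mup3, Mup6 and Xlr4a. A second detected probe existed for 5 of the 30, and it had the same highest array in all 5 and the same lowest array in 4. These were H2ac12 and the liver genes Apoa2, Serpina1b, Mup2 and Fga, so they are fewer than 5 independent cases. Over 2975 genes with a second probe, those shares were 36.5% and 31.8%. The 30 were picked for a large SD on these arrays and most of the 2975 were not, so the shares are not a like comparison. In exercised hearts, 27 of the 30 had an SD above the 90th percentile of detected genes, with a median of 1.14. Of the 100 most variable sedentary genes 44 were among the 100 most variable exercised ones, and 33 without sedentary replicate 2.

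At the other end, the 10 genes of smallest SD among the 2210 of highest mean intensity were Ncstn, Cox5a, Ppme1, Hacd3, Cmtr1, Cops4, Abhd17a, Ckmt2, H2bc9 and Mrps31. Ncstn, nicastrin of the gamma secretase complex, was at 9.62 in replicate 1, a median of 9.65 and 9.67 in replicate 3. Cox5a, the cytochrome c oxidase subunit, was at 14.40 in replicate 2, a median of 14.43 and 14.48 in replicate 3. The SDs of the 10 were 0.02 to 0.04 with replicate 2 in place. A second detected probe existed for 4 of them and varied more each time, with an SD of 0.13 for Ncstn, 0.43 for Cops4, 0.09 for Ckmt2 and 0.23 for Mrps31, so the small SDs belong to the probes chosen. Cox5a and Ckmt2 were also steady in exercised hearts, with SDs of 0.07 and 0.06, whereas H2bc9, a histone, had 0.34 and Hacd3 0.25. Promoters in the same RefSeq table differed in CpG per 300 bases. The median was 22 over 84 promoters of the 100 least variable of these 2210 genes, and 21 for all genes detected on all 6. It was 12 over 81 of the 100 most variable genes detected on all 6, and 6 over 76 when replicate 2 was left out. For genes detected on none it was 5. The 100 most variable were not limited to these 2210, so the sets also differ in signal, and they include near-identical Serpina1 and H2A copies.

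The comparison with exercised hearts asked whether the genes described above respond to a week of running. With limma, 18 of 9843 genes, or 0.183%, were called at an adjusted p under 0.05. Among them were 0 of the 50 brightest and 0 of the 30 most variable genes. The 30 were chosen by their SD over the sedentary arrays, which enters the variance limma uses. Their lack of calls therefore cannot show whether they respond. At an unadjusted limma p under 0.05 there were 2 of the 50, or 4%, and 13 of the 30, or 43.3%. Over the 8841 genes detected on all 6 sedentary arrays there were 1433, or 16.2%. The 13 of the 30 were the 12 liver genes highest in replicate 5 and Hamp, with log2 changes of 1.77 to 3.36. No atrial, H2A or red cell gene was among them. The 12 share their highest array and include near-identical Serpina1 copies, so the 30 are fewer than 30 independent measurements. The limma adjusted p was at least 0.23 for the 50 and 0.17 for the 30. The 50 brightest genes had log2 changes between -0.18 and 0.22, with a median of -0.02, against -0.04 over all detected genes. The 30 most variable had log2 changes between -0.86 and 3.36, and a median of 0.37. Mybphl averaged 10.38 ± 1.13 (log2 intensity) on exercised arrays and 9.49 ± 1.88 on sedentary arrays (SD, n = 6 each, limma adjusted p = 0.54). Hamp averaged 8.97 ± 1.16 in exercised and 7.20 ± 1.30 in sedentary hearts (limma adjusted p = 0.20). Nppa averaged 14.57 ± 0.39 in exercised and 14.16 ± 0.74 in sedentary hearts (limma adjusted p = 0.47).

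All 18 called genes were among the 8841 detected on all 6 sedentary arrays. They included members of cell type lists described above. C1qb, a chain of complement C1q, and Cd14, a co-receptor for endotoxin, both of the macrophage list, changed by -0.66 and -0.72 on the log2 scale, with means of 9.65 ± 0.21 and 6.94 ± 0.25 on exercised arrays and 10.31 ± 0.21 and 7.67 ± 0.19 on sedentary arrays (SD, n = 6 each). Ly6c1 of the endothelial list changed by -0.44 and Acta2, smooth muscle actin, by -0.70, and the limma adjusted p of the 4 genes was 0.04. With any 1 array other than sedentary replicate 2 left out, limma called 1 to 17 genes. Without sedentary replicate 2 limma called 236 genes, or 2.4%, and with the background range as a block 36, or 0.366%. Under both, 0 of the 50 brightest and 0 of the 30 most variable genes were called. The choice of the 30 by SD limits their count here too.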

How the data were processed

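RNA from 12 mouse heart samples was hybridised to Illumina beadchips, 6 exercised and 6 sedentary. The deposited intensity values are bead signals that the file headers call non-normalized, with a detection p-value per probe and array, also as deposited. A second table holds values the authors normalized on a scale close to log2; lumi made them per the submitters' processing notes, and its version and transformation are not given in the sources used here. All value columns matched a sample (0 unmatched). Direction and base of that table were not needed for the main values and its centring is unknown.

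Intensities were background-corrected and quantile-normalized with neqc (limma 3.58.1, R 4.3.3, offset 16) on the 6 sedentary arrays alone, the 6 exercised arrays alone, or all 12 for the comparison of groups. Shares use background-corrected signal on the linear scale before normalization between arrays. Probes were named from the platform annotation, 34885 with 1 symbol, 18 with several and 10378 with none, and the probe of highest mean stood for each of 19057 genes. Gene identifiers of 34807 probes matched RefSeq, and 0 symbols changed. Of 754 list entries 668 matched a measured gene. A gene was detected at p under 0.01. The SD was taken over genes detected on all 6 sedentary arrays. limma compared groups over 9843 genes detected on at least 6 arrays; p-values were adjusted by Benjamini-Hochberg and called under 0.05. Array totals were compared by exact permutation over samples (scipy 1.17.1), where the smallest possible p is 0.00216. Scripts were tested on simulated data. Promoters come from RefSeq (GRCm38.p6).

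Named genes were the 25 brightest, the 30 of largest SD, the 10 of smallest SD at high intensity, the 10 brightest detected on 1 to 5 arrays, up to 5 members of a described list with extra members where a count needed them, and the 5 profiles most like a list. Members and lists were chosen with earlier results of these data known. The globin, H2A, liver and urinary protein groups and the promoter motifs were chosen after values were seen. Same-numbered exercised and sedentary arrays had deviations correlating between -0.29 and 0.56, so the numbers were not taken as pairs. Alternatives were other normalizations, detection thresholds and probes, a replicate block, the background range as a block, and leaving out each array.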

Additional observations from a re-analysis of the deposited data

Results flagged for a closer look

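Among 111 groups of 6 values examined for 1 array far from the rest, 4 were marked, where chance gives about 5.55. In sedentary replicate 1 the energy buffer genes held 1.08% of the signal, against 0.990% to 1.01% on the other 5 sedentary arrays. Hspb6, a small heat shock protein, was at 14.33 in sedentary replicate 1, against 14.58 to 14.71 (log2 intensity). In sedentary replicate 2, the array of high background, Ndufb4 was at 7.42, against 9.08 to 10.03, and Tsc22d1 was at 10.70, against 8.38 to 8.69.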

How the results depend on the processing

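Counts of genes detected on all 6, on 1 to 5 or on none of the sedentary arrays stayed within 1.5 times the values reported under every alternative run, with 8880 to 8985 genes detected on all remaining arrays when 1 was left out. The share of the 50 brightest genes was 12.4% without background correction, 13.4% on the neqc scale and 11.6% over all probes with 1 symbol, and 13.9% to 14.1% with 1 array left out. The median SD was 0.13 with the deposited lumi values and 0.39 with median scaling, and 0.17 to 0.22 with 1 array left out. Genes with an SD above 0.5 numbered 83 with lumi, 1942 with median scaling, 120 with quantile normalization and no background correction, and 115 (without sedentary replicate 2) to 370 (without sedentary replicate 5). Of 40 named SDs, 17 moved with lumi and 5 without sedentary replicate 2; with another detected probe 4 of 9 moved, all among the least variable genes. The 18 genes called by limma became 3 with a replicate block, 0 with median scaling (432 at an unadjusted p under 0.05), 1 with no detection filter, 36 with the background range as a block, and 1 to 236 with 1 array left out, the 236 without sedentary replicate 2. The difference in detected genes was -142 within the low-background arrays (exact permutation p = 0.179), and -58.5 (without exercised replicate 6) to 98.5 with 1 array left out. The difference in the share of each array's first 50 genes was -0.74 to -0.22 with 1 array left out, and -0.01 within the low-background arrays. The causes were not tested. Leaving out sedentary replicate 2 for family shares was chosen after seeing the data.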
